A study of Mus musculus with 2 samples.

Results

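The netrins and their receptors were followed in total RNA of embryonic day 15.5 mouse hindbrain as 10 genes: the ligands Ntn1, Ntn3 and Ntn4, the receptors Dcc and Neo1, the receptors Unc5a, Unc5b, Unc5c and Unc5d, and Draxin. They were taken by name, not by any measured value, out of 43346 genes in the gene tables, and all 10 were found, with 25 annotated transcripts out of 103639. The tissue came from B6NCrl mice, a wild-type C57BL/6 substrain, with male and female embryos mixed. Replicate 1 pooled the hindbrains of 78 embryos and replicate 2 those of 62. No treatment, mutant or second tissue was compared, so the 2 libraries form 1 group, and no test between conditions and no p-value is possible. Each library is a pool, so the spread between them is that of pools and not of single embryos, and fewer cells of a type cannot be told apart from less RNA per cell.

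Netrins are secreted proteins related to laminins that steer growing axons and migrating neurons. Dcc mediates attraction to netrin-1, while receptors of the Unc5 family, alone or together with Dcc, mediate repulsion. In the hindbrain netrin-1 is made by the floor plate and the ventricular zone, and it guides commissural axons to the midline and precerebellar neurons, such as those of the pons and inferior olive, along their migration. Neo1, the close relative of Dcc, also binds repulsive guidance molecules, and Draxin is a secreted guidance protein that binds both Dcc and netrin-1. Unc5 proteins carry immunoglobulin and thrombospondin type 1 domains outside the cell and a death domain inside it.

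Several of the results turn on exons that are used in some transcripts and not in others. The sequences below are shown because they are the segments by which the coding parts of a pair of Unc5a transcripts and of a pair of Unc5c transcripts differ. They are from GENCODE M21 on GRCm38, the assembly called mm10, and are written 5′ to 3′ on the plus strand, which both genes use. Capitals mark the exon, and lower case marks 30 bases of the neighbouring exons. The Unc5a exon is exon 6 of 16 of the coding transcript Unc5a-201 at chr13:54997193-54997360. The Unc5c exon is exon 8 of 17 of the coding transcript Unc5c-201 at chr3:141786857-141786913.
Unc5a exon present: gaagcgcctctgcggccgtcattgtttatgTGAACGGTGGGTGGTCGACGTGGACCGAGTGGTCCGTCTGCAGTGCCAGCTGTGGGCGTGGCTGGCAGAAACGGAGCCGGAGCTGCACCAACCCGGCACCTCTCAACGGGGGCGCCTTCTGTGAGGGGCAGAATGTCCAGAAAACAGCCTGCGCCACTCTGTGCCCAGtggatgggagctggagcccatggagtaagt
Unc5a exon skipped: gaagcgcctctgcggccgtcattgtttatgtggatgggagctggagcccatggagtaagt
Unc5c exon present: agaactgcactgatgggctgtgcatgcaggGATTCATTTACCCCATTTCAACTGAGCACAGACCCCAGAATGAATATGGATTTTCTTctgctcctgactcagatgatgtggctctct
Unc5c exon skipped: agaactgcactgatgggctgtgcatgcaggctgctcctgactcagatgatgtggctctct

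Depth was alike in the libraries, with 40020322 counts assigned to genes in replicate 1 and 43263959 in replicate 2. The labelled tissue was checked on marker lists. Purkinje cell markers were detected for 7 of 8 genes, granule cell precursor markers for 7 of 7 and rhombic lip markers for 10 of 10, against 2 of 8 forebrain markers. Midbrain markers and peripheral nerve markers were also detected for 7 of 8 genes each. Markers of meninges and fibroblasts were detected for 8 of 8, and caudal Hox genes for 7 of 10. Detection alone therefore does not tell hindbrain from these other tissues. Some lists share genes, as the granule cell precursor and rhombic lip lists do. No listed marker of any list was at 0 in both libraries. The pools differed in markers of neighbouring tissue. The summed level of 10 caudal Hox genes was 95.5 TPM (a level corrected for transcript length and library size) in replicate 1 and 163 TPM in replicate 2, and that of 8 midbrain markers was 117 and 94.3 TPM.

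Transcripts of 9 of the 10 genes were detected, that is, at 1 TPM or more in both libraries, where 62.9% of 21545 nuclear protein-coding genes were. The median of the mean levels of all 10 was 12.2 TPM. It was 5.62 TPM over all nuclear protein-coding genes and 19.4 TPM over those detected by the same rule. Neo1 stood highest, then Dcc, Unc5c, Ntn1, Draxin, Unc5a, Unc5d, Ntn3, Unc5b and Ntn4. Among neighbours in that order, Dcc and Unc5c, Unc5c and Ntn1, and Draxin and Unc5a had libraries that overlapped. For the other neighbours every library of the higher gene lay above every library of the lower one. The place of Unc5c depends on the measure. By the transcript with most counts, a choice made after seeing the data, it had rank 6 at 7.03 TPM, below Ntn1, Draxin and Unc5a.

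**Figure D1:**
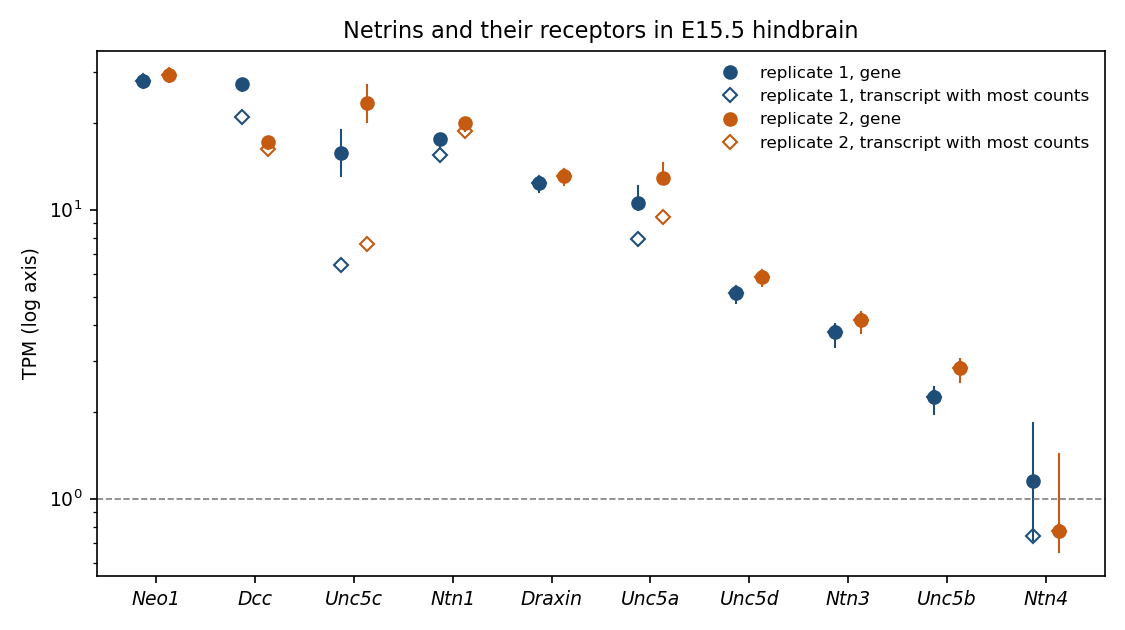
Level of each gene in TPM on a log axis, with filled points for the gene and open diamonds for its transcript with most counts; blue is replicate 1, orange is replicate 2, vertical lines are the authors' deposited intervals for the gene, and the dashed line is 1 TPM. Neo1 lies highest at 27.82 and 29.21 TPM, Ntn4 lies lowest, and the diamonds fall far below the points for Unc5c.

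Of the ligands, Ntn1, the classical netrin of the floor plate, was the most abundant. Its gene (ENSMUSG00000020902, chromosome 11, 68209364 to 68400823, minus strand) measured 17.54 TPM in replicate 1 and 19.96 TPM in replicate 2 (18.8 ± 1.71, SD, n = 2). Replicate 2 was a little higher, and the deposited intervals, 16.3 to 18.2 and 18.7 to 20.5 TPM, did not overlap. Its long transcript of 5738 nt held 87.7% and 93.9% of the gene's TPM, at 15.39 and 18.75 TPM. A short coding transcript of 944 nt held 11.5% and 6.11% of TPM but only 1.91% and 0.962% of the counts. A short transcript gains much TPM from few reads, so its share of TPM is larger than its share of counts.

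Ntn3 measured 3.76 and 4.16 TPM (3.96 ± 0.283, SD, n = 2; chromosome 17, 24203848 to 24209531, minus strand), and Ntn1 was 4.66 and 4.80 times as high in the same libraries. The Ntn3 gene shares 89 exonic nt with Tbc1d24 on the same strand and 139 nt with an antisense gene. Tbc1d24 measured 15.99 and 15.8 TPM, so part of the Ntn3 counts is uncertain. Ntn4, a netrin more akin to laminin β chains and found in basement membranes, measured 1.15 and 0.77 TPM (chromosome 10, 93640681 to 93747207, plus strand) and was the only member not detected in both libraries. Its counts were 73 and 75, so the libraries hardly differed in reads. The gap in TPM came with a short transcript of 582 nt, at 0.41 TPM in replicate 1 from 5.17 counts and 0 in replicate 2, while the transcript of 3646 nt stood at 0.74 and 0.77 TPM. The 3 ligands summed to 22.4 and 24.9 TPM, of which Ntn1 made 78.1% and 80.2%.

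Dcc and Neo1 together summed to 55.1 and 46.4 TPM. Neo1 (chromosome 9, 58874687 to 59036441, minus strand) measured 27.82 and 29.21 TPM (28.5 ± 0.983, SD, n = 2) from a single annotated transcript, and its deposited intervals overlapped. Dcc (ENSMUSG00000060534, chromosome 18, 71253634 to 72351069, minus strand) measured 27.24 TPM in replicate 1 and 17.14 TPM in replicate 2 (22.2 ± 7.14, SD, n = 2). Dcc was thus level with Neo1 in replicate 1, at 0.979 of its TPM, and at 0.587 of it in replicate 2.

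The annotated transcripts of Dcc differed between the pools to unequal degrees. The long form, ENSMUST00000114943, with 1447 codons, measured 20.92 and 16.24 TPM. The short form, ENSMUST00000073379, with 1427 codons, measured 5.11 and 0.36 TPM, and its deposited intervals, 3.02 to 7.49 and 0.0173 to 1.26 TPM, did not overlap. A retained-intron transcript measured 1.2 and 0.54 TPM. Of the coding pair, the short form made 19.6% in replicate 1 and 2.17% in replicate 2. The pair differs in coding sequence by an alternative splice acceptor of exon 17 of 29 by which the long form gains 60 nt, or 20 codons, between the fourth and the fifth fibronectin type III domain. In the deposited tables the pair also differs in length by 304 nt elsewhere, so the split does not rest on the acceptor alone, and how much each region weighs was not tested.

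The 4 Unc5 genes summed to 33.7 and 45.0 TPM, or to 21.8 and 25.7 TPM when each was represented by its transcript with most counts, a choice made after seeing the data. Unc5c (ENSMUSG00000059921, chromosome 3, 141465216 to 141834924, plus strand), the receptor whose loss is known to misplace cerebellar granule and Purkinje cells, had the highest gene TPM of the family, at 15.75 and 23.37 TPM (19.6 ± 5.39, SD, n = 2). Much of this level was assigned to transcripts annotated as noncoding. The noncoding transcript Unc5c-206, of 357 nt, measured 4.95 and 10.19 TPM from 33.07 and 71.84 counts. Unc5c-202, a coding transcript of 9298 nt, measured 6.45 and 7.60 TPM and held 82.7% and 79.0% of the counts. Noncoding transcripts made 49.6% and 56.7% of the Unc5c TPM but 9.46% and 10.2% of its counts. The other transcripts at 5% or more of the gene were the coding Unc5c-201, described below, Unc5c-207 with a retained intron (1.75 and 2.06 TPM) and Unc5c-203 with a retained intron (1.11 and 1.01 TPM). Unc5c was the member with 40% or more of its TPM in noncoding transcripts in both libraries, as were 13.9% of detected coding genes with several transcripts. That cutoff was set after the Unc5c values had been seen and describes them only.

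Coding transcripts of Unc5c alone summed to 7.94 and 10.1 TPM, below the 10.4 and 12.9 TPM of Unc5a. The order of these 2 genes therefore depends on whether short noncoding transcripts are counted: by gene TPM Unc5c was 1.49 and 1.81 times Unc5a, and by the transcript with most counts it was 0.812 and 0.809 times. Unc5c-201 carries the 57-nt exon printed above, which adds 19 codons, and measured 1.49 and 2.51 TPM, or 18.8% and 24.8% of its pair with Unc5c-202. The pair also differs greatly in length outside this exon, 3890 nt against 9298 nt in the deposited tables, so these shares are of whole transcripts and do not measure use of the exon alone.

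Unc5a (ENSMUSG00000025876, chromosome 13, 54949411 to 55006018, plus strand) measured 10.58 and 12.9 TPM (11.7 ± 1.64, SD, n = 2). Its main transcript in both pools was Unc5a-202, which skips the printed exon of 168 nt, at 7.94 and 9.40 TPM. Unc5a-201, which includes it, measured 2.43 and 3.50 TPM. The skipped form made 76.6% and 72.9% of the pair (74.7% ± 2.62, SD, n = 2). The exon adds 56 codons in frame, for 898 against 842 codons, in the part of the gene that encodes the first thrombospondin type 1 domain. The 2 transcripts differ in net length by these 168 nt alone, but the boundaries of their other exons were not compared. The split is an estimate. Deposited intervals were 6.25 to 8.77 and 7.86 to 10.4 TPM for Unc5a-202, and 1.46 to 3.69 and 2.33 to 4.52 TPM for Unc5a-201.

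**Figure D2:**
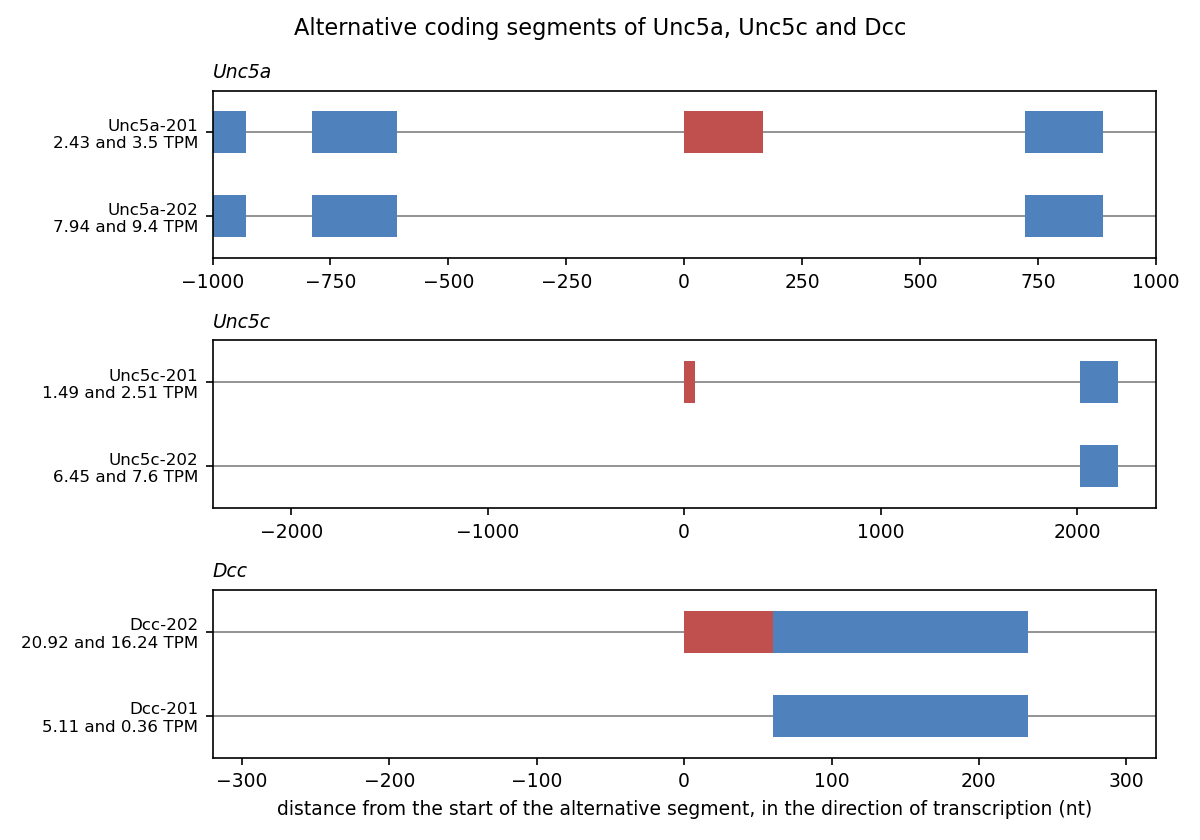
Exons around the alternative coding segments of Unc5a, Unc5c and Dcc, as distance in nt from the start of the segment in the direction of transcription; blue boxes are exons, red is the alternative segment, and the labels give TPM in replicate 1 and replicate 2. The Unc5a form that skips its segment, at 7.94 and 9.40 TPM, is the more abundant, as is the Dcc form that includes it.

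Unc5d, a receptor that also binds FLRT proteins, measured 5.14 and 5.84 TPM (5.49 ± 0.495, SD, n = 2; chromosome 8, 28646717 to 29219636, minus strand). Unc5b, best known from endothelium and also a receptor in the nervous system, measured 2.24 and 2.84 TPM (2.54 ± 0.424, SD, n = 2; chromosome 10, 60762593 to 60831581, minus strand). Unc5d was 2.29 and 2.06 times as high as Unc5b. Listed endothelial markers summed to 208 and 207 TPM, alike in the pools, and their part in the Unc5b level was not tested. Draxin (chromosome 4, 148098437 to 148130698, minus strand) measured 12.36 and 13.02 TPM (12.7 ± 0.467, SD, n = 2). Ntn1 exceeded it 1.42 and 1.53 times.

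**Figure D3:**
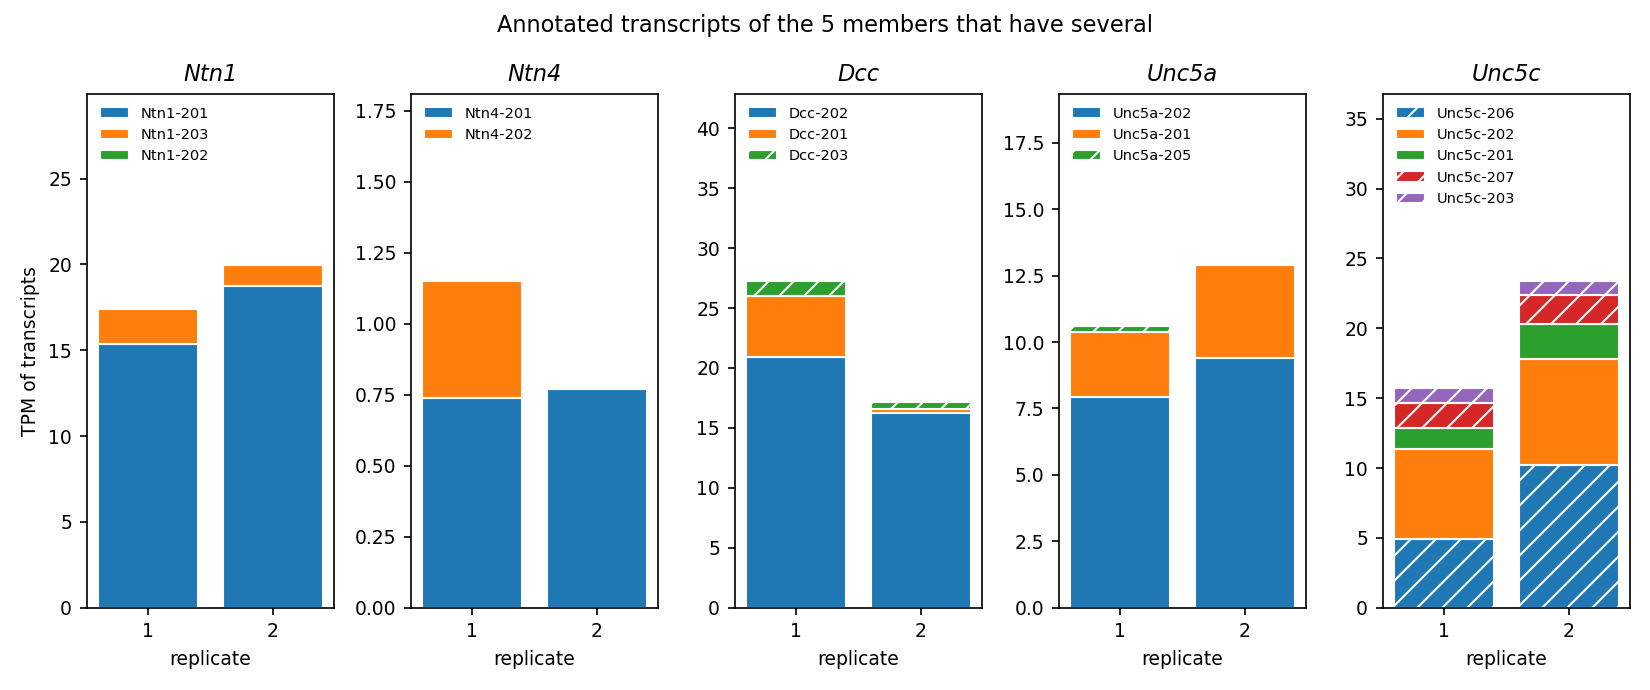
TPM of the annotated transcripts of the 5 genes that have several, stacked for replicate 1 and replicate 2, with noncoding transcripts hatched. The short form of Dcc is at 5.11 and 0.36 TPM, Unc5a-202 leads in both libraries, and hatched transcripts make 49.6% and 56.7% of Unc5c.

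How far the pools differed was read from the counts, scaled by TMM, which evens out library size and composition. The ratio is log2 of replicate 2 over replicate 1, and its 95% interval is exact (Clopper-Pearson) and covers counting error only. Dcc gave 3518 and 2375 counts and a log2 ratio of -0.68 (-0.75 to -0.60), or 1.60-fold lower in replicate 2. This is larger in size than the ratio of 95.2% of the 17048 genes compared, those with a mean count of 20 or more. Dcc was the member past 1.5-fold lower, where 4.22% of genes were, and 0 members were past 1.5-fold higher, where 2.23% of genes were. The rhombic lip markers, which include genes of migrating precerebellar neurons, held 2 of 10 genes past 1.5-fold lower and 1 higher, the midbrain markers 3 of 8 lower, the forebrain markers 5 of 8 higher and 1 lower, the peripheral nerve markers 4 of 8 lower, and the caudal Hox genes 5 of 8 compared higher. Skeletal muscle markers held 3 of 6 compared genes lower, with sums of 22.8 and 15.7 TPM. Markers of meninges and fibroblasts held 1 of 8 past the fold lower, with log2 ratios from -0.59 to -0.29 and sums of 630 and 509 TPM. Of 7 granule cell precursor markers 1 was past the fold lower, and this gene is already among the 2 lower rhombic lip markers. Past the fold higher were 1 of 7 floor plate markers and 1 of 8 Purkinje cell markers. The radial glia, endothelium and pericyte lists held 0 genes past it. The part of any of these lists in the Dcc difference was not tested. By the counts of the long form alone, a comparison added after seeing the data, Dcc stood at -0.40 (-0.48 to -0.32) and within 1.5-fold.

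Ratios of the other 9 members lay within 1.5-fold. Unc5b reached 0.31 (0.11 to 0.52), Unc5a 0.28 (0.16 to 0.40), Unc5c 0.27 (0.18 to 0.36) and Ntn1 0.23 (0.15 to 0.31), all higher in replicate 2. Unc5d followed at 0.15 (0.04 to 0.27) and Ntn3 at 0.12 (-0.06 to 0.30). Neo1 at 0.04 (-0.01 to 0.09), Draxin at 0.04 (-0.05 to 0.14) and Ntn4 at -0.07 (-0.56 to 0.41) had intervals that include 0. The counting interval lay off 0 for 6 of 10 members and for 38.0% of the 17048 genes compared. The width of this interval depends on counts, and the genes compared were not matched to the members by count. The log2 ratios of all genes compared had an SD of 0.403 and central 95% limits of -0.75 and 0.56, and every member lies inside these limits. Among the receptors, Dcc had a negative ratio and Neo1 one near 0, while the Unc5 ratios ran from 0.15 to 0.31. These Unc5 ratios were smaller than the SD of all genes compared, whose median ratio was 0.002. The share of all genes with a positive ratio was not computed, so the directions are a description only. With spike-in scaling, which shifts the median gene by -0.11, Neo1 and Draxin stood at -0.07 and Unc5d at 0.04. The signs of Dcc and of the Unc5 genes were as before.

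**Figure D4:**
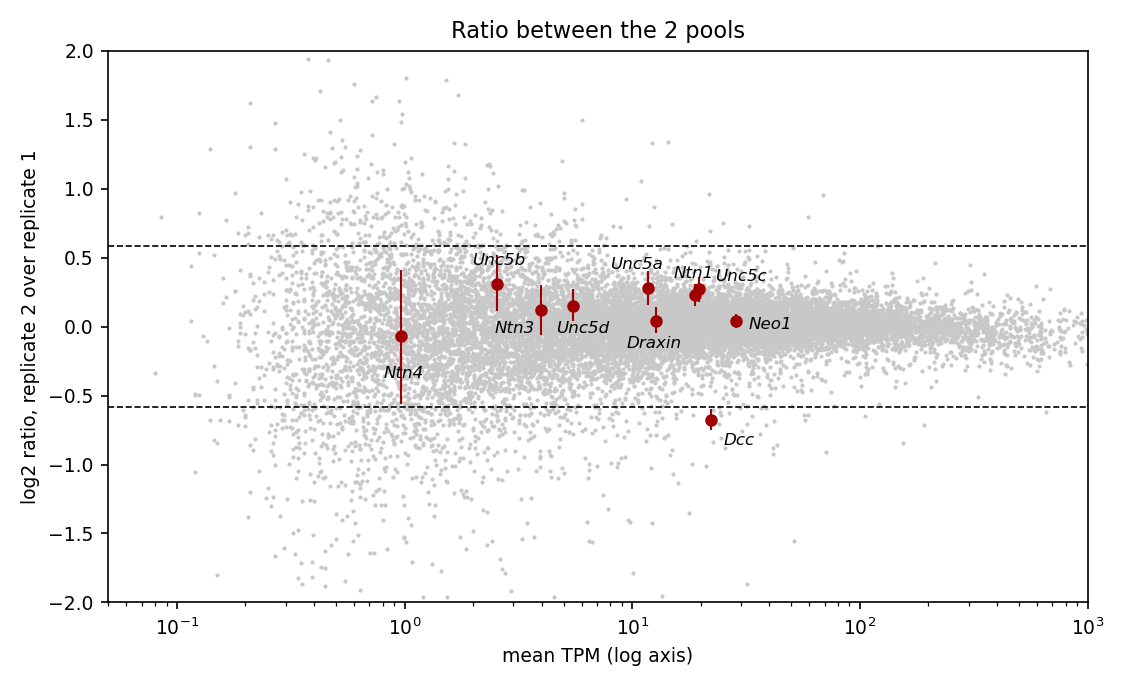
Log2 ratio of replicate 2 over replicate 1 (TMM-scaled counts) against mean TPM on a log axis; grey points are the genes compared, red points are the 10 members with exact 95% counting intervals, and dashed lines mark 1.5-fold. Dcc, at -0.68, lies below the lower line and the other 9 lie between the lines; genes outside the plotted range are not drawn.

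For Unc5c and Ntn4 the ratio of TPM differed from the ratio of counts. Unc5c was 0.57 higher in replicate 2 by log2 of TPM and 0.27 higher by counts, and Ntn4 was -0.58 by TPM and -0.07 by counts. A gap of 0.25 or more was seen in these 2 members and in 3.50% of genes, a cutoff chosen after both values had been seen. In both genes a short transcript, of 357 nt in Unc5c and of 582 nt in Ntn4, had different shares of TPM in the libraries. The leading transcript by TPM was the same in both libraries for 4 of the 5 members with several transcripts, and for 92.2% of such genes; in Unc5c it was Unc5c-202 in replicate 1 and Unc5c-206 in replicate 2. Deposited intervals did not overlap between libraries for 6 of 16 member transcripts at a mean of 1 TPM or more, against 9.85% of all such transcripts. Of these 6, 4 were higher in replicate 2 and 2, from Dcc, were lower. The width of such an interval depends on the number of reads. The transcripts compared were not matched to the members for it, so no excess is read from these shares.

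The transcripts with most counts of the members shared no stretch of 50 bases with another member, and 0 to 2.65% of such stretches with any other gene. RefSeq promoters on GRCm38, from 250 bases before to 50 after the start, were matched for 7 of the 10. CpG, the letters CG, which read the same on both strands, occurred 54 times in Neo1, 39 in Draxin, 37 in Unc5a, 36 in Unc5b, 31 in Ntn4, 24 in Unc5c and 16 in Ntn3. The median of all 32851 promoters was 7. As many CpG as in Neo1 were held by 0.347% of promoters and as many as in Ntn3 by 33.0%.

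Of 17 other ligands and co-receptors of the pathway that were listed, 16 could be matched. All 16 passed detection, as did 62.9% of nuclear protein-coding genes. The median level of the 16 was 13.4 TPM. The most abundant were Gpc3, a glypican that binds Unc5 proteins, at 67.56 and 61.7 TPM, the repulsive guidance molecule Rgmb, a Neo1 ligand, at 52.28 and 60.77 TPM, Cbln4, reported to bind Dcc, at 30.27 and 30.84 TPM, and Flrt3, an Unc5 ligand, at 31.17 and 27.1 TPM. Gpc3, Rgmb and Cbln4 each exceeded every member in both libraries. None of the 16 passed 1.5-fold in either direction, and their log2 ratios ran from -0.26 to 0.32. Few of all genes compared passed it either, 4.22% lower and 2.23% higher, so this does not set the list apart.

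Intracellular effectors were detected for 26 of 26 genes, where 62.9% of nuclear protein-coding genes were. The median level of the effectors was 46.8 TPM. Tubb3, a neuronal tubulin that binds Dcc, stood highest at 1406.49 and 1444.56 TPM, followed by Maged1, which binds Unc5a, at 738.26 and 776.88 TPM. Cdc42, which acts downstream of Dcc, measured 744.71 and 759.33 TPM, and the microtubule protein Map1b 589.39 and 624.65 TPM. Again 0 of 26 passed 1.5-fold, where 4.22% of genes compared were lower and 2.23% higher. Log2 ratios of the 26 ran from -0.22 to 0.16. Most of these genes serve many pathways, so their levels are not a measure of netrin signalling.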

How the data were processed

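Total RNA over 200 nt, 10 ng per library with spike-ins, was sequenced from 2 pools, per the labels. The deposited expected counts, TPM, FPKM, posterior mean values and TPM interval bounds came from mm10 with GENCODE M4, per the file headers and notes. For aligner, quantifier and strand setting the sources used here give nothing. The deposited posterior spread, a signal per the file headers, and the authors' percent per transcript were not printed.

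Names and exons came from GENCODE M21. Of 43346 genes, 42462 matched by gene ID, 143 by transcript ID (Ntn3 among them) and 741 not at all. Among the transcripts of Unc5a, Unc5c, Dcc, Ntn1 and Ntn4 compared for length, models in M21 are longer than in the files for 2. These are the long form of Dcc (10323 against 5219 nt) and Unc5c-202 (9646 against 9298 nt). Model lengths also differ for Ntn3, Neo1, Unc5b and Unc5d. Spike-ins held 2.86% and 3.09% of counts and stayed out of gene totals.

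Ratios used TMM factors from edgeR 4.0.16 on unrounded expected counts, a prior of 0.5, and a minimum mean count of 20. Counts were rounded to whole numbers for the counting intervals, the DESeq2 size factors and the biological coefficient of variation. The biological coefficient of variation of the libraries was 0.0892. The intervals come from a gene's counts in both libraries with the scaling held fixed, so they cover counting error only. PCR reads carry no molecular identifiers, so copies of the same molecule can count as separate reads, and the intervals may be too narrow. The ratio step was tested on simulated data with changes larger than the ratio of any member gene. Recovery of changes as small as those of the members was not tested.

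All 10 members are named; of each pathway list the 4 of highest mean TPM and any undetected or past 1.5-fold; of cell lists only counts and sums; and of transcripts those at 5% or more of a gene at 1 TPM or more; the Ntn4 transcripts and the retained-intron transcript of Dcc fall outside this and were named after their values were seen. Hjv was not matched. The members and lists were chosen with earlier results of these data known. Protein identity had been planned and was not computed, since no protein table was used here. Alternatives were DESeq2 1.42.0 size factors, library and spike-in totals, TPM pseudocounts, other minimums, FPKM, posterior means, coding-gene TPM, and 1 library left out. Single-transcript alternatives were added after seeing the data: the transcript of highest mean TPM was tried first, and the transcript with most counts was added once that choice had made Unc5c-206 stand for Unc5c. Both are reported.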

Additional observations from a re-analysis of the deposited data

How the results depend on the processing

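Of 205 alternative values, 161 were labelled the same and 44 moved, and 0 reversed a called direction. The replicate spread or counting interval served for levels, shares and ratios. Counts of members have neither, and the biological coefficient of variation was labelled by an arbitrary tolerance. The median level of 12.2 TPM became 15.5 when rescaled over nuclear coding genes, 7.57 in FPKM, 7.85 for the transcript with most counts and 8.12 for the transcript of highest mean TPM, and ran from 11.5 to 13.0 with 1 library left out. The number detected ran from 9 to 10, also with 1 library left out. The count of members past the fold lower in replicate 2, which is Dcc alone, was 1 under every scaling, 0 at a fold of 2, 0 for the transcript with most counts (for Dcc the long form, log2 -0.40) and 0 for the transcript of highest mean TPM. The count higher was 0, and 1 for the transcript of highest mean TPM, where Unc5c is Unc5c-206 with a log2 ratio of 1.00 from 33.07 and 71.84 counts. These single-transcript choices were made after seeing the data, the highest-TPM one before the other. Members with the same leading transcript numbered 4, or 5 by coding transcripts or by counts. Spike-in scaling shifts the median gene by -0.11. No paired analysis was possible because there is 1 group. Low depth limits Ntn4 most, with 73 and 75 counts.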
